A study of Arabidopsis thaliana with 10 samples.

Results

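The cysteine-rich receptor-like kinases (CRKs) of Arabidopsis were followed by the locus codes of 41 genes, all of which had a row among the 27826 rows measured on each array. They comprised CRK2 to CRK4, the 20 genes of the tandem cluster CRK5 to CRK24 on chromosome 4, and 18 further genes, CRK25 to CRK34, CRK36 to CRK42 and CRK45. The 21 members outside that cluster are called dispersed here. Members were chosen by locus code, but the family was put forward with the log2 differences between the genotypes on these same arrays already known. Its genotype values are therefore a description, and no count over its members supports a claim.

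Roots of 20-day-old seedlings were profiled on 10 Affymetrix arrays. Of these, 5 carried RNA of the Col-0 wild type and 5 RNA of mcu123, which the labels describe as a triple knockout of MCU. MCU proteins form the pore of the mitochondrial calcium uniporter. Values are log2 intensities from the authors' RMA processing, which corrects the background, gives all arrays one distribution and summarises the probes of each locus. Both groups were untreated, were kept under 16 h of light at 21 °C and 8 h of darkness at 17 °C, and each array stands for a pool of root systems. Nothing in the labels says that pools came from separate cultures, so p-values reflect only the variation among these pools, which may be technical.

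A CRK carries an extracellular region with DUF26 domains, which hold conserved cysteines, followed by a membrane-spanning segment and a cytosolic serine/threonine kinase. Many CRK genes are known to be induced in leaves by pathogens, salicylic acid or reactive oxygen species, and several CRKs act in immune signalling, cell death or responses to abscisic acid. Several members lie side by side on chromosome 4 and resemble each other in sequence. Probe sequences were not used here, and whether a probe also reads a neighbouring copy was not tested. The name CRK is also used for kinases related to calcium-dependent protein kinases, which are a different family and are not meant here.

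The targeted genes were examined first. MCU1 (AT1G09575) had a log2 intensity of 4.52 ± 0.23 in Col-0 against 2.87 ± 0.16 in mcu123 (mean ± SD over n = 5 arrays each, limma adjusted p = 4.0e-04). MCU3 (AT2G23790) measured 6.12 ± 0.22 and 4.14 ± 0.28 (n = 5 each, limma adjusted p = 4.0e-04). MCU2 (AT1G57610) measured 2.86 ± 0.29 and 2.77 ± 0.27, which is within the spread between arrays, and the place of its probes relative to the disrupted site was not analysed here. Of the 12 root markers, all lay above the array median of 4.30, and their mean ran from 6.91 to 7.16 on the wild-type arrays and from 6.99 to 7.10 on the mcu123 arrays. Of the 8 photosynthetic shoot markers, 2 lay above that median, and their mean ran from 2.64 to 3.51 and from 2.75 to 3.68. The array of mcu123 replicate 3 stood apart from the others, with an array weight of 0.39 where the other arrays had 0.64 to 1.77. Whether these marker levels or that array's difference had a part in the results below was not tested, beyond leaving the array out.

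Most CRK genes gave little signal in these roots. All arrays share one distribution of values, with a median of 4.30 and a lower quartile of 2.05 on the log2 scale. Averaged over the 10 arrays, 27 of the 41 members lay under that lower quartile, 3 lay between it and the median, and 11 lay above the median. Brightness also depends on the probes, so a value near the bottom does not show that a gene is silent, and an order of brightness among members is not read as an order of expression.

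Of the 20 genes of the tandem cluster, 3 lay above the array median, CRK10, CRK11 and CRK19, and 15 lay under the lower quartile. Among the dispersed members, 8 of 21 lay above the median: CRK2, CRK3, CRK25, CRK26, CRK27, CRK28, CRK29 and CRK34. The remaining 13 had means over all arrays of at most 2.61. The members above the median were thus not one block of neighbours, since CRK10 and CRK11 adjoin each other while CRK19 lies apart from them within the cluster.

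**Figure D1:**
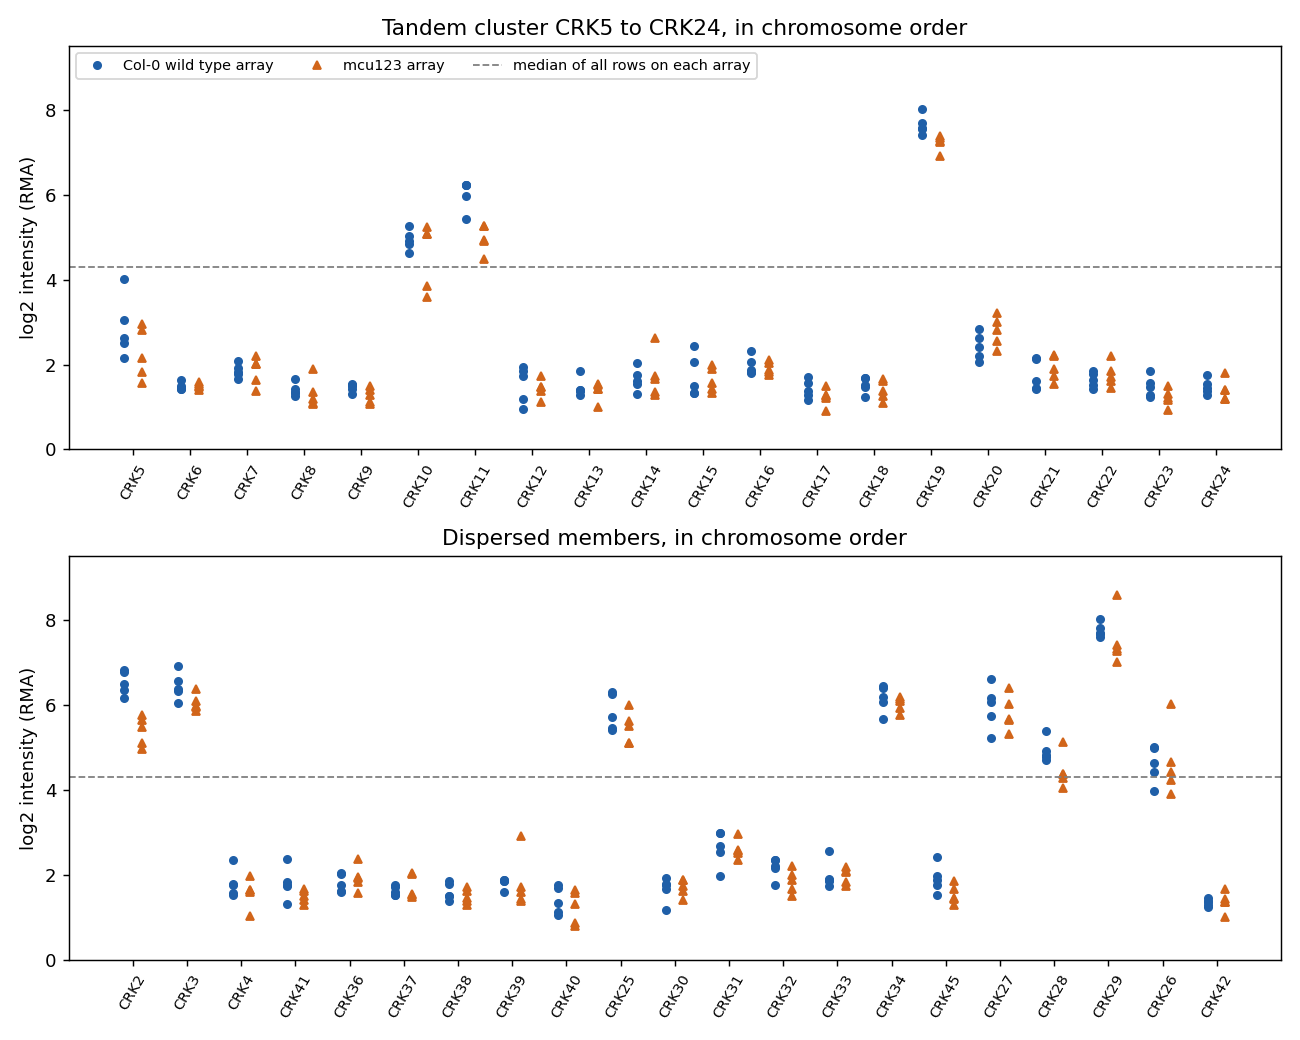
Log2 intensity (RMA) of each of the 41 members on each array, with Col-0 wild-type arrays as circles, mcu123 arrays as triangles and the median of all rows as a dashed line. In the cluster 3 of 20 genes lie above that line on average, among the dispersed members 8 of 21, and the groups of CRK2, CRK11 and CRK19 do not overlap.

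Wild type and mcu123 were then compared to ask which CRK transcripts differ in roots of the MCU knockout. Each row was tested with limma, a linear model with variances moderated across rows, with Benjamini-Hochberg adjustment over all rows and a threshold of 0.05. No CRK passed in that test of 27826 rows, of which 12, or 0.0431%, passed, 11 of them (0.0395% of all rows) with mcu123 lower. The smallest adjusted p-values among the members belonged to CRK2 and CRK11 (limma, 0.065 and 0.096), which ranked 17 and 37 by p among all rows. At an unadjusted p under 0.05 there were 6 members, all with lower means in mcu123: CRK2, CRK11, CRK19, CRK3, CRK28 and CRK45. Over all rows 7.46% reached that p, and 4.08% did so with a lower mean. In whole roots, fewer cells that express a gene and less of its RNA per cell cannot be told apart.

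CRK2 (AT1G70520), a kinase known to phosphorylate the oxidase RBOHD, had the largest difference in the family. It measured 6.49, 6.78, 6.34, 6.17 and 6.83 in wild type replicates 1 to 5 and 5.75, 5.63, 5.48, 5.10 and 4.96 in mcu123 replicates 1 to 5 (log2 intensity). Every mcu123 array lay below every wild-type array, with a gap of 0.41 between the groups. The difference was -1.14 on the log2 scale (95% interval -1.53 to -0.74), a mean level 2.20-fold lower in mcu123. It missed the threshold over all rows, and it passed in 2 of 15 alternative fits, with a trended and robust prior (limma adjusted p = 0.027) and with array weights (0.046), while the other fits gave up to 0.23. Without mcu123 replicate 3 the difference was -1.16.

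CRK3 (AT1G70530) is the gene next to CRK2 on chromosome 1. It measured 6.33, 6.92, 6.38, 6.57 and 6.04 in the wild type and 6.36, 5.97, 5.86, 5.94 and 6.08 in mcu123. The groups overlapped, since mcu123 replicate 1 lay above wild type replicates 1 and 5. The difference was -0.41 (95% interval -0.76 to -0.05, limma adjusted p = 0.60). The 5 genes on each side of this pair had log2 differences of -0.34 to 0.29, and none had groups that did not overlap.

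CRK11 (AT4G23190), also called RLK3, is a cluster gene known to be induced by oxidative stress and salicylic acid. It measured 5.97, 6.22, 6.22, 6.22 and 5.44 in wild type replicates 1 to 5 and 5.26, 4.91, 4.49, 4.94 and 5.26 in mcu123 replicates 1 to 5. The groups did not overlap, although wild type replicate 5 lay closer to the highest mcu123 arrays than to the next wild-type array. The difference was -1.04 (95% interval -1.45 to -0.63), a mean level 2.05-fold lower in mcu123. CRK11 passed in 2 of 15 alternative fits, with array weights (limma adjusted p = 0.046) and without wild type replicate 5 (0.043), while the other fits gave up to 0.38. Without mcu123 replicate 3, its lowest array, the difference was -0.92.

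CRK10 (AT4G23180) lies directly beside CRK11 and is the gene formerly named RLK4. It measured 5.26, 4.90, 5.02, 4.83 and 4.62 in the wild type and 5.08, 5.25, 3.58, 5.06 and 3.85 in mcu123. Of the mcu123 arrays, 3 lay at the wild-type level while replicates 3 and 5 lay below every wild-type array, so the groups overlapped. The difference was -0.36 with a wide interval (-1.03 to 0.31). It was -0.11 without mcu123 replicate 3 and -0.18 without mcu123 replicate 5, and reached -0.53 without mcu123 replicate 2.

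CRK19 (AT4G23270) is the third cluster gene above the array median, and its forced expression is known to trigger cell death in leaves. It measured 7.58, 8.02, 7.54, 7.40 and 7.69 in the wild type and 7.32, 6.92, 7.38, 7.26 and 7.23 in mcu123. The groups did not overlap, but the lowest wild-type array and the highest mcu123 array were only 0.02 apart. The difference was -0.42 (95% interval -0.72 to -0.12, limma adjusted p = 0.47), and it was -0.46 without mcu123 replicate 3.

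CRK2, CRK11 and CRK19 were the members whose groups did not overlap, all lower in mcu123. That is 3 of 41, where 1.70% of all rows had groups that did not overlap, and 1.02% did so with mcu123 lower. Of the rows above the array median, 1.54% did so with mcu123 lower. Since the family was chosen with these results known, nothing is read from the comparison with the background.

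**Figure D2:**
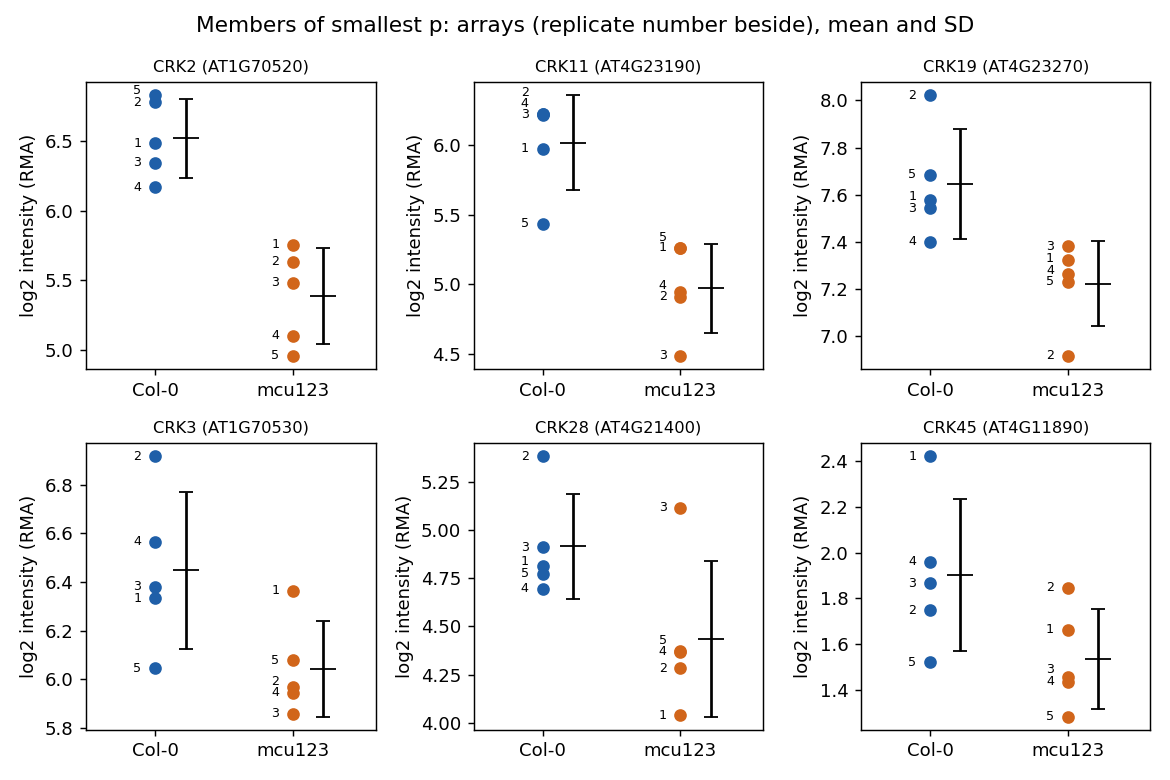
Log2 intensity (RMA) of the 6 members of smallest p, with a point for each array, its replicate number beside it, and the mean with SD as a bar, for Col-0 and mcu123 (n = 5 each). CRK2, CRK11 and CRK19 have groups that do not overlap, while CRK3, CRK28 and CRK45 overlap.

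CRK28 (AT4G21400) and CRK29 (AT4G21410) are neighbours. CRK28 is known to associate with the co-receptor BAK1. CRK28 measured 4.81, 5.38, 4.91, 4.70 and 4.77 in the wild type and 4.04, 4.28, 5.12, 4.37 and 4.37 in mcu123. CRK29 measured 7.61, 8.02, 7.69, 7.68 and 7.81 in the wild type and 7.33, 7.02, 8.58, 7.41 and 7.27 in mcu123. For both genes mcu123 replicate 3 lay well above the rest of its genotype, and the other 4 mcu123 arrays lay below every wild-type array. The differences were -0.48 for CRK28 and -0.24 for CRK29 in log2 units (limma adjusted p = 0.61 and 0.87). They were -0.65 and -0.50 without mcu123 replicate 3 (limma adjusted p = 0.15 and 0.17). With that array left out, 5 members had groups that did not overlap, CRK2, CRK11, CRK19, CRK28 and CRK29, all lower in mcu123. With the same array left out, 2.49% of all rows had groups that did not overlap with mcu123 lower.

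CRK26 (AT4G38830) had the widest range within a genotype. It measured 3.97, 5.01, 4.62, 4.98 and 4.42 in the wild type and 3.89, 4.65, 6.03, 4.23 and 4.42 in mcu123. The mcu123 arrays spanned 2.14 on the log2 scale, and replicate 3 was again the highest. The difference of 0.05 (95% interval -0.71 to 0.80) became -0.30 without that array. The sign also turned without wild type replicate 1, to -0.11.

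The other bright dispersed members differed by less than their spread. CRK25 (AT4G05200) averaged 5.82 ± 0.43 in wild-type roots and 5.47 ± 0.38 in mcu123 roots (n = 5 each). CRK27 (AT4G21230) measured 5.96 ± 0.52 and 5.80 ± 0.41, a difference of -0.15 that was 0.01 without wild type replicate 2. CRK34 (AT4G11530) measured 6.15 ± 0.31 and 6.02 ± 0.17, with mcu123 arrays from 5.76 to 6.18 inside the wild-type range of 5.67 to 6.46.

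**Figure D3:**
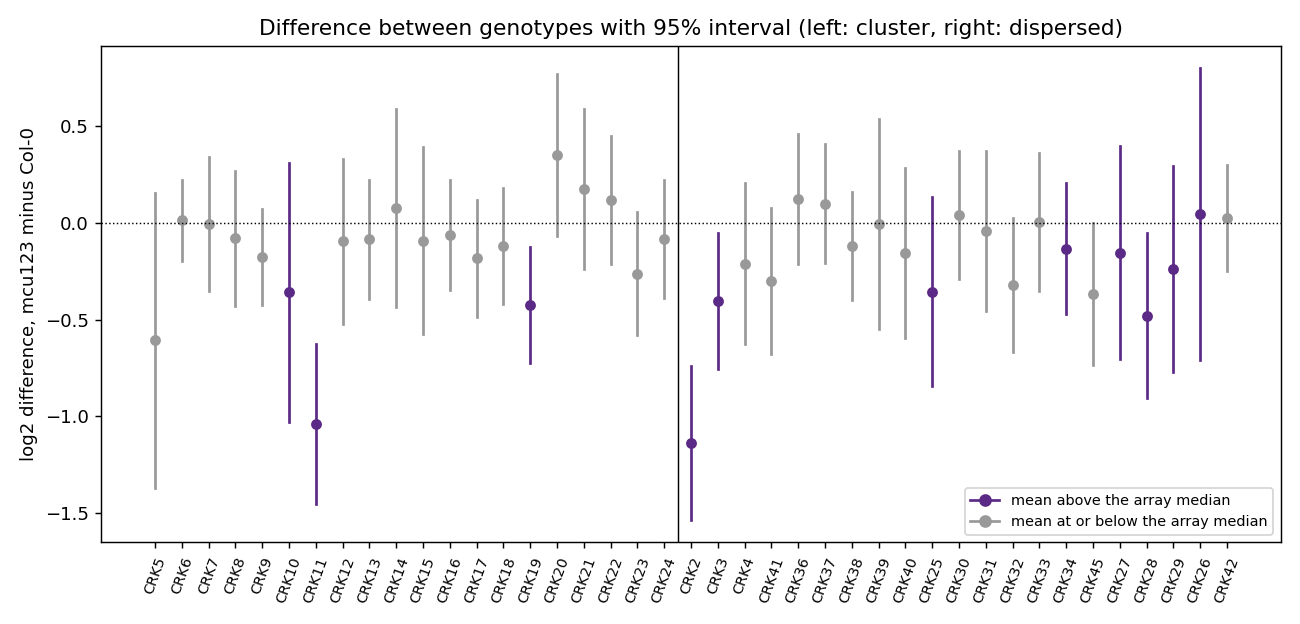
Log2 difference, mcu123 minus Col-0, with its 95% interval for each member, cluster genes left of the line and dispersed members right of it; members with a mean above the array median are purple, the others grey. CRK2 at -1.14 and CRK11 at -1.04 lie lowest, and CRK20 at 0.35 lies highest.

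Among the members that gave little signal, most differences were small. Of the 30 members at or below the array median, 20 had lower and 10 had higher means in mcu123. Their median log2 difference was -0.08, and no member had groups that did not overlap. Of all 27826 rows, 47.3% had lower means in mcu123 and 1.70% had groups that did not overlap. Nothing is read from these counts. CRK5 (AT4G23130), whose forced expression is known to raise pathogen resistance in leaves, had the largest difference of the 30 members, -0.61 (95% interval -1.37 to 0.15). With single arrays left out, the difference of CRK5 ranged from -0.79 to -0.32, the smallest without wild type replicate 2. Its wild-type arrays ran from 2.15 to 4.02 and its mcu123 arrays from 1.56 to 2.95, so the spread within each genotype exceeded the difference. CRK20 (AT4G23280), known to affect bacterial growth in leaves, had the highest difference of the family, 0.35 (95% interval -0.07 to 0.77). It measured 2.41, 2.63, 2.20, 2.83 and 2.07 in the wild type and 2.996, 2.55, 2.31, 2.82 and 3.22 in mcu123, with groups that overlapped.

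CRK45 (AT4G11890), which RefSeq lists as ARCK1, is a kinase of the cytosol that acts in abscisic acid responses together with CRK36. It measured 2.42, 1.75, 1.87, 1.96 and 1.52 in the wild type and 1.66, 1.85, 1.46, 1.44 and 1.28 in mcu123. The groups overlapped, and the difference was -0.37 (95% interval -0.73 to -0.00, limma adjusted p = 0.67). Its partner CRK36 (AT4G04490) measured 1.81 ± 0.21 and 1.93 ± 0.29. Both lay under the lower quartile in either genotype, so these values give little room to see a difference.

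CRK32 (AT4G11480) measured 2.22, 2.35, 2.35, 1.76 and 2.17 in the wild type and 1.89, 1.99, 2.20, 1.66 and 1.501 in mcu123, with a difference of -0.32 (limma adjusted p = 0.70). CRK40 (AT4G04570), the dimmest row of the family, ran from 1.05 to 1.76 in the wild type and from 0.79 to 1.65 in mcu123. Both genes had overlapping groups. CRK6 (AT4G23140) and CRK7 (AT4G23150), cluster genes known to protect against extracellular oxidative stress, measured 1.49 ± 0.09 and 1.85 ± 0.16 in the wild type, and their log2 differences were 0.01 and -0.00. CRK13 (AT4G23210), known for its part in resistance to Pseudomonas, measured 1.47 ± 0.22 and 1.38 ± 0.22. CRK4 (AT3G45860), the single member on chromosome 3, measured 1.79 ± 0.33 and 1.58 ± 0.34.

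The cluster was then set against the dispersed members. In the cluster 15 of 20 genes had lower means in mcu123 and the median log2 difference was -0.09. Among the dispersed members 15 of 21 had lower means and the median was -0.15. With single arrays left out, the median ranged from -0.14 to -0.05 in the cluster, the smallest without mcu123 replicate 3, and from -0.24 to -0.06 among the dispersed members, the smallest without wild type replicate 2. The order of the medians turned without wild type replicate 2 (-0.10 in the cluster and -0.06 among the dispersed members) and without mcu123 replicate 2 (-0.14 and -0.11), and barely without wild type replicate 4 (-0.1055 and -0.1046). Over all rows 47.3% had lower means and the median log2 difference was 0.01. Both parts thus had a small median and held 1 member near a log2 unit below 0, CRK11 in the cluster and CRK2 outside it. Members of a family are not replicates of a genotype, so no p was computed for either set.

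Among the 11 members above the array median, 10 had lower means in mcu123, with CRK26 as the exception, and the median log2 difference was -0.36. Of all rows above the median, 45.6% had lower means, with a median log2 difference of 0.02. The mean of the 3 bright cluster genes ran from 5.91 to 6.38 on the wild-type arrays and from 5.15 to 5.89 on the mcu123 arrays. The mean of the 8 bright dispersed members ran from 5.84 to 6.43 and from 5.45 to 6.20. The 2 genotypes did not overlap for the cluster genes, by a margin of 0.02, and overlapped for the dispersed members, where mcu123 replicate 3 was the highest mcu123 array. Of the 3 cluster genes, CRK11 and CRK19 already had groups that did not overlap, and the bright subset was chosen after its values were seen. Nothing is therefore read from this contrast between cluster and dispersed members.

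Array by array, the bright members varied partly together. Wild type replicate 2 was the highest wild-type array for 9 of the 11 members, and wild type replicate 5 was the lowest for 5. Within mcu123, replicate 3 was the highest array for 6 of the 11, CRK19 and the dispersed CRK25, CRK26, CRK27, CRK28 and CRK29. The same array was the lowest for CRK3, CRK10 and CRK11. The 2 neighbours CRK10 and CRK11 were thus low on the array on which the neighbours CRK28 and CRK29 were high. CRK2 followed neither pattern on that array, where it lay in the middle of its genotype at 5.48. Wild type replicate 2 also had the highest wild-type mean of the root markers (7.16) and of the shoot markers (3.51). Among the mcu123 arrays, replicate 3 had the highest mean of the root markers (7.10) and the lowest of the shoot markers (2.75). Whether the shared variation is particular to the CRKs was not tested.

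**Figure D4:**
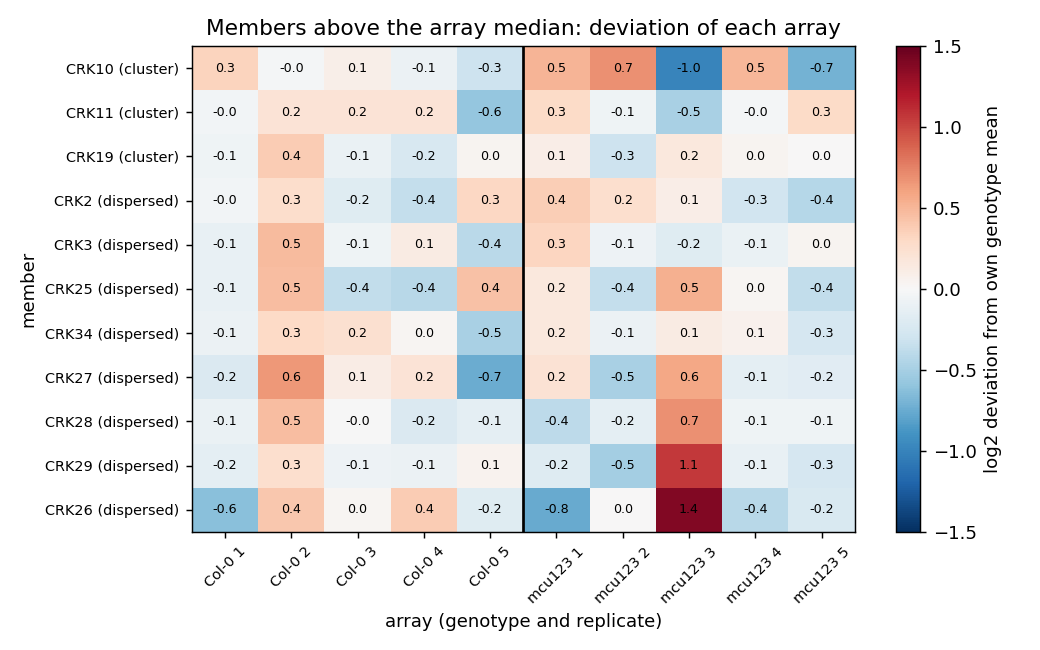
Deviation of each array from the mean of its own genotype (log2) for the 11 members above the array median, with arrays in columns and members in rows, red for higher and blue for lower. In mcu123 replicate 3, CRK26 and CRK29 are more than a log2 unit above their genotype mean, while CRK10 is about a log2 unit below it.

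The neighbours of the cluster were read in gene order. By that order the 20 cluster genes form a run interrupted on the array by the single locus AT4G23271, whose log2 difference was -0.37. The 5 genes on each side of the cluster had log2 differences of -0.30 to 0.35, with a median of 0.02. One of them, GSH1 (AT4G23100), the first enzyme of glutathione synthesis, had groups that did not overlap and a difference of -0.30 (limma adjusted p = 0.51). Within the cluster, the genes on either side of CRK11 were CRK10 at -0.36 and CRK12 (AT4G23200) at -0.10, and those beside CRK19 were CRK18 (AT4G23260) at -0.12 and AT4G23271.

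The other members formed smaller runs. The genes CRK36 to CRK40 form a run on chromosome 4, with at most 1 other gene between consecutive members. All of them lay under the lower quartile, with log2 differences of -0.15 to 0.12. CRK30 to CRK33 (with at most 1 other gene between them) had differences of -0.32 to 0.04. CRK34 of the same region, separated from them by 2 other genes, was the one bright gene there.

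Related genes were read from lists of the same pathways. None of the 17 cell-surface immune receptors, co-receptors and oxidative burst genes passed over all rows. At an unadjusted p under 0.05 there were 5, of which 4 were lower and 1, SERK1 (AT1G71830, 0.27), was higher in mcu123. Lower means in mcu123 were found for 15, with a median log2 difference of -0.22. Over all rows 7.46% reached that p and 47.3% had lower means, and 45.6% of the rows above the array median had lower means. The lists were chosen with earlier results known, so nothing is read from their counts. PEPR1 (AT1G73080), the receptor of Pep danger peptides, had the smallest p of the 17 genes. It measured 7.19 ± 0.30 in wild-type roots and 6.39 ± 0.23 in mcu123 roots (n = 5 each, limma adjusted p = 0.15), and the mcu123 arrays all lay below the wild-type arrays. SOBIR1 (AT2G31880) was the other gene of the 17 whose groups did not overlap, at -0.45 (limma adjusted p = 0.21). Over all rows 1.02% had groups that did not overlap with mcu123 lower. RBOHD (AT5G47910), the oxidase that CRK2 phosphorylates, measured 7.69, 7.76, 7.86, 7.39 and 6.91 in the wild type and 6.84, 6.71, 7.70, 7.18 and 6.63 in mcu123. Its groups overlapped, with a difference of -0.51 (limma adjusted p = 0.65). BAK1 (AT4G33430), the partner of CRK28, had a difference of -0.14.

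None of the 19 genes of salicylic acid and immune transcription passed (6 at an unadjusted p under 0.05, all lower in mcu123). Lower means were found for 16, with a median of -0.15, where 47.3% of all rows had lower means and 7.46% reached that p. WRKY38 (AT5G22570), a transcription factor induced by salicylic acid, had the smallest p there, at 5.96 ± 0.78 and 4.66 ± 0.33 (n = 5 each, limma adjusted p = 0.25). Its log2 difference was -1.30, and it was the 1 gene of the 19 whose groups did not overlap. Of all rows, 1.02% had groups that did not overlap with mcu123 lower. The salicylic acid marker PR1 (AT2G14610) gave almost no signal in either genotype, at 1.29 ± 0.11 and 1.28 ± 0.31.

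The plasmodesmata-located proteins (PDLPs) share the DUF26 domain with the CRKs but lack a kinase. None of the 8 passed, 5 had lower means, and the median log2 difference was -0.00. At an unadjusted p under 0.05 there were 2, 1 lower in mcu123 and 1 higher, PDLP2 (AT1G04520) at 0.30, where 7.46% of all rows reached that p. PDLP5 (AT1G70690), which promotes callose deposition at plasmodesmata, had the smallest p, at 5.98 ± 0.21 and 5.58 ± 0.31 (n = 5 each, limma adjusted p = 0.61). The wall-associated kinases WAK1 to WAK5, another tandem set of receptor kinases, had no gene that passed. Of the 5, 1 had an unadjusted p under 0.05, higher in mcu123, where 7.46% of all rows reached that p. All 5 had higher means in mcu123, with a median of 0.21, where 14670 of the 27826 rows had higher means. However, WAK1, WAK2 and WAK3 averaged 1.41, 1.42 and 1.40 over all arrays, under the lower quartile, with differences of 0.29, 0.01 and 0.06. WAK4, which gave the median of 0.21, reached 6.21 in mcu123 replicate 3. Its median array was 4.83 in the wild type and 4.56 in mcu123. WAK5 (AT1G21230) had the smallest p of the 5 genes, at 3.31 ± 0.44 and 3.98 ± 0.46 (n = 5 each, limma adjusted p = 0.53).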

How the data were processed

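The authors deposited log2 intensities made with RMA, per the submitters' processing notes. The sources used here name no array model, probe grouping, software version or genome build. RMA's shared distribution hides any shift common to all genes. No detection calls were used here, no gene was filtered, and precision is limited by the number of arrays.

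The 27826 rows were fitted together with limma 3.58.1 in R 4.3.3 (lmFit, eBayes, genotype only, two-sided, Benjamini-Hochberg over all rows, threshold 0.05). The fit was tested on simulated data. Names and gene order came from the RefSeq table of TAIR10.1, which held all 41 members; neighbours are the 5 protein-coding genes with a row on each side, and a run allows 1 other gene between members. No sequences are shown, and sequence features were not analysed here.

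The members and lists were chosen with earlier results of these data known. The rule named members that passed, members whose groups did not overlap, the 8 of smallest p, the 5 of highest mean, the dimmest and the one of widest range, and from each list the gene of smallest p. The MCU genes served as the label check. Other genes and the subset above the array median were chosen after their values were seen.

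The fit was repeated with the replicate number as a block, with array weights, with a prior that was trended and robust, after cyclic loess, without the dimmest 30% of genes, and with each array left out. Same-numbered arrays did not deviate together (correlations of -0.21 to 0.09), so the numbers were not taken as pairs.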

Additional observations from a re-analysis of the deposited data

Results flagged for a closer look

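In 82 sets of 5 arrays, 1 for each member and genotype, 6 held an array far from the other 4, where chance gives about 1 in 20, or 4.1. The gap to the nearest array is given as a share of the range of the 5. CRK29 in mcu123 replicate 3 was highest at 8.58 (0.7475), where the other mcu123 arrays averaged 7.26 ± 0.17. CRK13 in the same array was lowest at 1.004 (0.7769) against 1.48 ± 0.06. The other 4 were low-signal rows on other arrays. CRK39 was highest in mcu123 replicate 2 at 2.92 (0.7849) against 1.53 ± 0.15, and lowest in wild type replicate 1 at 1.59 (0.858) against 1.86 ± 0.02. CRK33 was highest in wild type replicate 4 at 2.56 (0.7884) against 1.83 ± 0.08. CRK13 was highest in wild type replicate 1 at 1.85 (0.7932) against 1.37 ± 0.05.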

How the results depend on the processing

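No CRK passed as deposited, with cyclic loess, with the replicate block or without the dimmest 30% of genes. By limma, 1 passed with the trended and robust prior (CRK2, -1.14), 2 with array weights (CRK2 at -1.12 and CRK11 at -0.98), and 0 to 1 with each array left out (CRK11, -1.18, without wild type replicate 5); the cause was not tested. Under the replicate block, limma adjusted p was 0.23 for CRK2 and 0.38 for CRK11, and no call changed. The members at an unadjusted p under 0.05 numbered 6, and 3 to 9 with each array left out, with 3 without mcu123 replicate 4. The members with lower means numbered 30, and 28 to 33 with each array left out. Without the dimmest 30% of genes only 14 members entered the fit, 12 with lower means, and the median log2 difference was -0.36 over them and -0.42 over the 5 cluster genes left, against -0.24 over the 9 dispersed genes left, so the order of those medians turned. In that fit the difference of each member left was unchanged, and the medians moved because the dimmest members were no longer among them. The difference of CRK26 took the other sign with array weights (-0.19), and with each array left out it ran from -0.30 to 0.23. That of CRK27 ran from -0.34 (without wild type replicate 5) to 0.0069 (without wild type replicate 2). Members whose groups did not overlap numbered 3 to 5. Over all alternatives, 26 of the 41 members kept their sign, and the 15 that took both had main differences of up to 0.15 in size. Calls over all rows ranged from 5 to 35 against 12. Most members lay near the bottom of the scale, where a difference is hard to see.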
